A study of Mus musculus with 47 samples.

Results

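*Dbp*, *Tef* and *Hlf* encode the proline and acidic amino acid-rich basic leucine zipper (PAR bZIP) transcription factors, and *Nfil3* encodes a repressor that competes with them for the same DNA element. These 4 genes were examined in the cortex of mice with intact or depleted microglia across the 24-h day. They were found by symbol, with the Ensembl gene identifiers of the deposited tables matched to GENCODE M21, and all 4 were among the 14580 genes whose level averaged 1 TPM (a length-corrected share of a library's transcripts) or more, out of 54281 genes in the TPM table. The samples were cortices of male C57BL/6J mice about 3 months old, kept in a light and dark cycle with lights on at Zeitgeber time 0 (ZT0) and off at ZT12. Mice received either control chow or chow with 1200 ppm PLX5622, a CSF1R inhibitor that eliminates microglia, for 10 days, and 1 cortex per mouse was sequenced at ZT2, ZT6, ZT10, ZT14, ZT18 or ZT22. Each diet and time had 4 libraries except control ZT14 with 3, which gave 23 control and 24 PLX5622 libraries. All mice were wild type and group housed, 4 to a cage. The sources used here do not say whether cage mates shared a diet or a time of harvest.

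In the circadian clock, the activators CLOCK and BMAL1 (encoded by *Arntl*) bind E-box elements and drive their own repressors, the PER and CRY proteins, as well as output genes such as *Dbp*. DBP, TEF and HLF in turn activate genes through an element called the D-box, and NFIL3, also known as E4BP4, represses through the same element. *Nfil3* is under the control of REV-ERB and ROR nuclear receptors, so that activators and repressor of the D-box are known to peak at different times of day in many tissues. In liver, kidney and brain, the PAR bZIP factors are known for controlling genes of drug and vitamin B6 metabolism, among them *Pdxk*, and mice that lack all of them are prone to seizures.

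Library totals ranged from 16597987 to 27626161 counts, with medians of 18314954 in control and 21476967.5 in PLX5622 mice, and mitochondrially encoded genes took 6.46% to 10.0% of the counts. The 5 cortical layer markers were all above the level filter, with a summed level of 75.2 to 135 TPM in control and 69.0 to 125 TPM in PLX5622 libraries. Markers of neighbouring tissue were also present and uneven, with 5 striatal markers summing to 113 to 516 TPM in control and 149 to 476 TPM in PLX5622 libraries and 5 choroid plexus markers to 67.1 to 1184 and 146 to 1265 TPM. Their part in the results below was not tested. All 12 microglial markers were lower in PLX5622 mice, with a summed level of 473 to 729 TPM in control and 21.6 to 115 TPM in PLX5622 libraries.

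*Dbp* (ENSMUSG00000059824.12) lies on the plus strand at chr7:45705088-45710203 of GRCm38 and shares 737 bp at its 3′ end with *Sphk2*, a gene on the opposite strand with a mean of 11.2 TPM. *Tef* (ENSMUSG00000022389.15) spans chr15:81802421-81826863 on the plus strand and shares 193 bp with the antisense gene *Gm17597*, which had a mean of 0.702 TPM. *Hlf* (ENSMUSG00000003949.16) spans chr11:90336536-90390895 and *Nfil3* (ENSMUSG00000056749.7) chr13:52967209-52981073, both on the minus strand and with no overlapping gene. Whether the reads were counted by strand is not given in the sources used here, so that reads from the shared part of *Dbp* and *Sphk2* may not be told apart.

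The windows ran from 250 bases before to 50 after the RefSeq start sites of the members (GRCm38.p6, 2 start sites for *Tef*). They were searched on both strands for elements of the clock. Searched were the E-box CACGTG and the related CACGTT, the D-box as TTATGTAA and TTACGTAA, the cyclic AMP response element (CRE) TGACGTCA and the core of the ROR element AGGTCA, none of which contains another. The matches are shown as 30 bases, 5′ to 3′ on the gene's strand, with the match in capitals.
*Tef*, first start site, E-box, chr15:81802534-81802563, plus strand: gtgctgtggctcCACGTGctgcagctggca
*Tef*, second start site, E-box, chr15:81811264-81811293, plus strand: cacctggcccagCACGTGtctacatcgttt
*Hlf*, CRE, chr11:90390908-90390937, minus strand: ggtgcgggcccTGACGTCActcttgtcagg
*Nfil3*, ROR element core on the other strand, chr13:52981034-52981063, minus strand: ggcgctcggaacTGACCTactaacacacat
Both *Tef* windows held the E-box, at 127 and 138 bases before the start sites, and 7.15% of the 32851 windows of all genes held it. The *Hlf* window held the CRE, as did 1.79% of windows, and the *Nfil3* window held AGGTCA, as did 16.3%. Neither D-box form, held by 0.938% and 0.119% of windows, nor CACGTT, held by 4.68%, was in a window of any member, and the *Dbp* window held none of the 6 motifs. The *Tef* first and *Nfil3* matches overlapped exons of the GENCODE annotation. A match describes letters and not a bound site. Elements outside these windows, as in introns or farther upstream, were not searched, so a window without a match does not show that a gene lacks them.

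On the per-length TPM scale, *Tef* had the highest level of the 4 genes, at 153 ± 20.4 TPM (SD, n = 47), followed by *Dbp* at 81.7 ± 32.2 TPM, *Hlf* at 69.9 ± 12.3 TPM and *Nfil3* at 4.82 ± 1.07 TPM. *Tef* was above *Dbp* in all 47 libraries. The order of *Dbp* and *Hlf* depended on the time of day. *Dbp* was above *Hlf* in every library at ZT6, ZT10 and ZT14 and in none at ZT2 and ZT22 in both diets, while at ZT18 it was above in 3 of 4 control and 2 of 4 PLX5622 libraries. *Nfil3* was counted with 52 to 236 reads per library, against 624 to 3524 for *Dbp*, 3575 to 7708 for *Hlf* and 6252 to 15424 for *Tef*, so its values are the least precise.

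*Dbp*, the PAR bZIP factor most directly driven by CLOCK and BMAL1, changed most of the 4 genes over the day. In control mice the 4 libraries at ZT2 were at 51.6, 55.8, 45.8 and 55.7 TPM, and the 3 at ZT14 at 129, 116 and 139 TPM. In PLX5622 mice the 4 libraries at ZT2 were at 38.8, 43.1, 45.02 and 43.9 TPM, and the 4 at ZT14 at 141, 115, 129.9 and 119 TPM. The lowest ZT14 library stood above every ZT2 library in each diet, and the ratio of the group means was 2.46 in control and 2.96 in PLX5622 mice. The 6 times fell into 3 levels in both diets, with ZT10 and ZT14 overlapping at the top, ZT6 and ZT18 overlapping in the middle, and ZT22 and ZT2 overlapping at the bottom. No library of one level reached the next.

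*Tef*, whose product shares the D-box with DBP, was high and rose and fell less. In control mice it was at 144, 129, 124 and 133 TPM at ZT6 and at 183, 173 and 188 TPM at ZT14. In PLX5622 mice it was at 133, 125, 126 and 121 TPM at ZT6 and at 201.2, 178, 183 and 187 TPM at ZT14. The ZT6 and ZT14 libraries did not overlap in either diet, with ratios of the means of 1.37 and 1.48. The decline from ZT14 was slow, and the control means stayed at 159.6 TPM at ZT18 and 158 TPM at ZT22, against 162 and 152 TPM in PLX5622 mice. Of the 5 neighbouring pairs in the order of the means, 4 overlapped in control mice, all but ZT22 and ZT2. In PLX5622 mice 3 overlapped, all but ZT22 and ZT2 and, narrowly, ZT14 and ZT10 (178.36 against 178.34 TPM). These gaps do not part the times into levels, since times that were not neighbours overlapped across them. The ZT18 libraries reached from 140.5 to 179.5 TPM in PLX5622 mice, below the highest at ZT2 (142.4 TPM) and above the lowest at ZT14. In control mice the lowest at ZT18 (146.1 TPM) was below the highest at ZT2 (149.1 TPM).

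*Hlf*, first known from the fusion gene of a human leukaemia, had its highest mean at ZT14 in both diets and wide spreads within groups. Control libraries were at 87.5, 71.2 and 104 TPM at ZT14 and at 63.7, 61.8, 49.9 and 63.7 TPM at ZT10, the lowest control time. PLX5622 libraries were at 81.4, 86.0, 91.7 and 90.2 TPM at ZT14 and at 66.2, 57.6, 62.3 and 49.8 TPM at ZT6, the lowest PLX5622 time. The highest and lowest times did not overlap in either diet, with ratios of 1.46 and 1.48, but all 5 neighbouring pairs in the order of the times did.

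*Nfil3*, the repressor, ran low in the late light phase, when *Dbp* was near its top. In control mice it was at 3.55, 3.99, 3.50 and 4.28 TPM at ZT10 and at 5.51, 5.13, 5.48 and 6.01 TPM at ZT18, the time with the highest mean. In PLX5622 mice it was at 4.98, 2.02, 3.53 and 4.12 TPM at ZT10 and at 4.63, 6.41, 6.74 and 6.69 TPM at ZT2, the highest time there. The ZT10 and ZT18 libraries did not overlap in control mice, while the ZT10 and ZT2 libraries of PLX5622 mice did. All 5 neighbouring pairs overlapped in both diets.

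**Figure D1:**
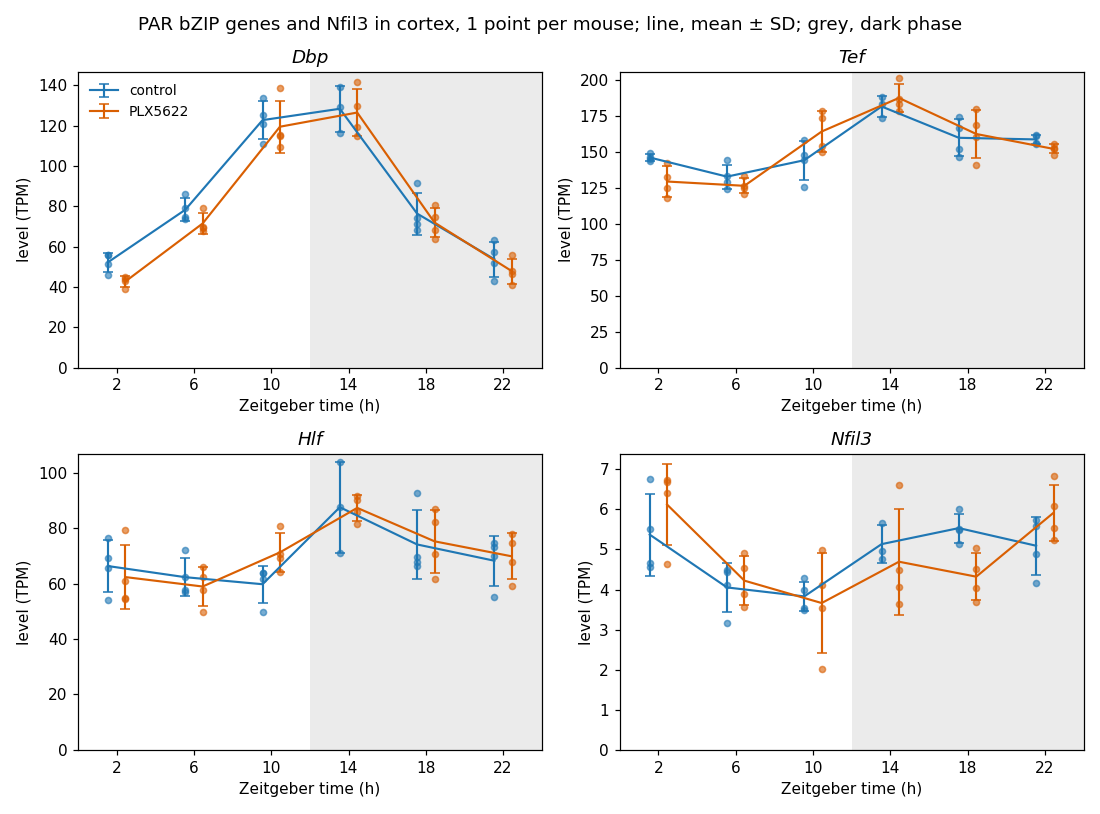
Levels in TPM (y axis, from 0) against Zeitgeber time in hours (x axis) for the 4 genes, with 1 point per mouse and lines through the group means ± SD (n = 4, control ZT14 n = 3). *Dbp* rises from about 50 TPM to near 130 TPM and back in both diets, *Tef* and *Hlf* change less, and *Nfil3* is lowest at ZT10.

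To test each gene for a 24-h rhythm, JTK_CYCLE, an exact rank test against 24-h curves of 6 phases, was run within each diet and adjusted with the Benjamini-Hochberg procedure over all 14580 genes. In control mice 12 genes, or 0.0823%, passed an adjusted p of 0.05, and *Dbp* was the member among them. Its adjusted p was 2.77e-05 in JTK_CYCLE, against 0.162 for *Tef*, 0.234 for *Nfil3* and 1 for *Hlf*. In PLX5622 mice 72 genes, or 0.494%, passed, among them *Dbp* (adjusted p = 1.85e-05) and *Tef* (adjusted p = 0.00579) but neither *Hlf* (0.0675) nor *Nfil3* (0.236) by JTK_CYCLE. That *Tef* passed in one diet and not in the other does not show a difference between diets, which is tested below.

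With count models more genes passed, members included. edgeR's quasi-likelihood test of a cosine and sine term called 2.16% of genes in control mice, with *Dbp* (adjusted p = 5.72e-11), *Tef* (0.0104) and *Nfil3* (0.0219) among them and *Hlf* at 0.0614, and 3.06% in PLX5622 mice, with all 4 members among them (*Nfil3*, the highest, at 0.0168). DESeq2 called 5.04% and 5.98% of genes, and all 4 members in both diets. So a rhythm of *Dbp* passed in each test run, that of *Tef* in each run in PLX5622 mice, and those of *Hlf* and *Nfil3* depended on the test.

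The size and time of each rhythm were taken from a cosine curve fitted to log2(TPM + 1), where the amplitude is the distance from the mean to the peak. The amplitude of *Dbp* ranked 49 of 14580 genes in control and 34 in PLX5622 mice, that of *Nfil3* 1443 and 578, that of *Hlf* 2234 and 831, and that of *Tef* 2573 and 656. The median gene had an amplitude of 0.09 in both diets, and the fitted *Dbp* curve had a ratio of peak to trough of 2.67 in control and 3.13 in PLX5622 mice.

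*Dbp* was fitted with a peak at ZT12.0 (standard error 0.24 h) in control and ZT12.2 (0.183 h) in PLX5622 mice, the time of lights off. *Tef* followed with an amplitude of 0.16 (standard error 0.033) and a peak at ZT17.1 (0.776 h) in control mice, and with 0.26 (0.033) and ZT15.0 (0.480 h) in PLX5622 mice. *Hlf* was close to *Tef*, with amplitudes of 0.17 (0.065) and 0.24 (0.052) and peaks at ZT17.0 (1.46 h) and ZT15.4 (0.815 h). *Nfil3* came last, with amplitudes of 0.20 (0.049) and 0.28 (0.077) and peaks at ZT20.3 (0.963 h) and ZT23.2 (1.07 h).

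*Dbp* was fitted to peak first, *Tef* and *Hlf* together after it and *Nfil3* last in both diets. In the group means, *Dbp*, *Tef* and *Hlf* were all highest at ZT14 in both diets. The fitted lags therefore rest on the shape of 1 cosine curve through times 4 h apart. The intervals below do not cover a misfit of that shape. *Tef* was fitted to peak 5.08 h after *Dbp* in control mice (95% jackknife interval over mice 3.33 to 6.83 h) and 2.86 h after it in PLX5622 mice (1.82 to 3.89 h). *Hlf* and *Tef* could not be told apart, at a difference of -0.045 h (-2.71 to 2.62 h) and 0.387 h (-1.45 to 2.22 h). *Nfil3* was fitted to peak 8.30 h after *Dbp* (5.94 to 10.7 h) in control and 11.1 h after it (9.06 to 13.05 h) in PLX5622 mice. A lag of 12 h, at which 2 curves are exactly opposite, lay outside the first interval and inside the second. The amplitudes of the other members differed from that of *Dbp* by -0.55 to -0.50 in control and by -0.58 to -0.55 in PLX5622 mice, each with an interval below 0. Those of *Tef*, *Hlf* and *Nfil3* differed from each other by -0.02 to 0.04, with intervals that included 0.

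**Figure D2:**
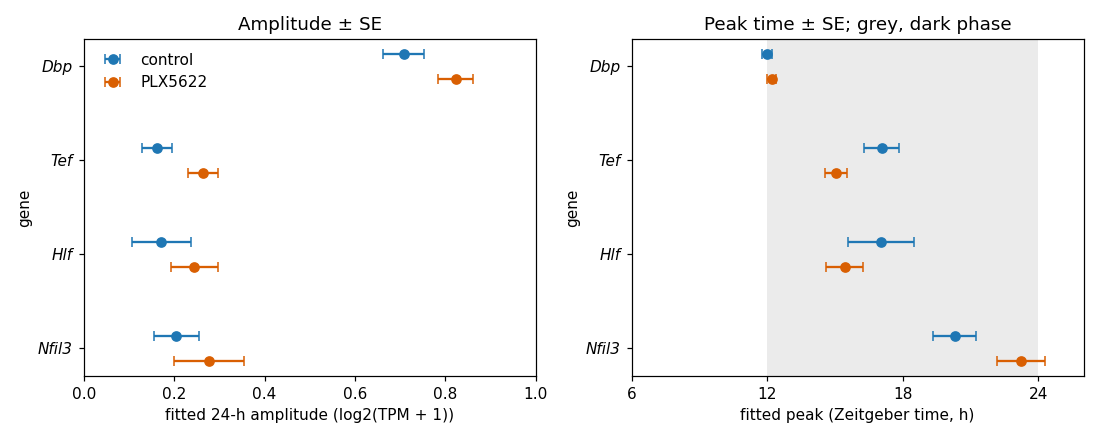
Fitted 24-h amplitude in log2(TPM + 1) (left) and fitted peak in Zeitgeber time (right) of each gene, as estimates ± standard error from 23 control and 24 PLX5622 libraries. *Dbp* has the largest amplitude, 0.71 and 0.82, and the earliest peak, ZT12.0 and ZT12.2, and *Nfil3* the latest.

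To compare rhythms between diets, the interaction of diet with the cosine and sine terms was tested in limma over all 47 libraries. No gene passed of the 14580 tested (0%), and 669 genes, 4.59%, had an unadjusted p under 0.05, as did 1 of the 4 members. That member was *Tef*, with an unadjusted p of 0.0195 (limma adjusted p = 0.999986), against 0.127 for *Nfil3*, 0.160 for *Dbp* and 0.419 for *Hlf*. edgeR and DESeq2 also called 0 genes, with 837 (5.76%) and 877 (6.07%) under an unadjusted p of 0.05, and there *Tef* had an unadjusted p of 0.0817 and 0.0622 and *Nfil3* of 0.0391 and 0.0310.

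The intervals of the differences show how large a change these data leave room for. The fitted amplitude was higher in PLX5622 mice for all 4 genes, by 0.12 for *Dbp* (95% jackknife interval -0.01 to 0.24), 0.10 for *Tef* (-0.00055 to 0.21), 0.07 for *Hlf* (-0.11 to 0.25) and 0.07 for *Nfil3* (-0.13 to 0.28), and every interval included 0. The fitted peak of *Dbp* differed by 0.198 h (-0.437 to 0.833 h). That of *Tef* was earlier in PLX5622 mice, by -2.03 h (-3.95 to -0.104 h), and that of *Nfil3* later, by 2.96 h (0.0105 to 5.90 h), intervals that excluded 0 but were not adjusted for the 4 genes compared. The peak of *Hlf* differed by -1.60 h (-5.40 to 2.21 h).

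The mean level over the day was compared in limma with the time of day as a cosine and sine term. Across all genes 503 passed (3.45%), of which 376 were lower in PLX5622 mice, and 0 of the 4 members were among them. *Dbp* was lower by a log2 difference of -0.12 (standard error 0.044, unadjusted p = 0.00992, adjusted p = 0.145), with means of 85.3 TPM in control and 80.0 TPM in PLX5622 mice when the 6 times weigh equally. The differences of *Hlf* (0.03, standard error 0.059), *Nfil3* (-0.01, 0.067) and *Tef* (-0.01, 0.038) were all smaller than their errors, and the median gene moved by 0.03. *Dbp* was called by edgeR (log2 difference -0.16, adjusted p = 0.0317, with 7.29% of genes called) and by DESeq2 (-0.17, adjusted p = 0.0121, 7.8% called), and over the 11 alternatives its adjusted p ranged from 0.0121 to 0.389. The difference was negative in each of them. In bulk tissue, fewer cells of a type and less RNA per cell cannot be told apart, and the loss of microglial RNA accompanied the diet in every library. Its part in the level of *Dbp* was not tested.

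At single times of day, limma called 1.29% of genes at ZT2, 1.01% at ZT6, 1.07% at ZT10, 0.905% at ZT14, 0.809% at ZT18 and 1.3% at ZT22, and 0 of the 24 tests of a member at a time passed. *Dbp* was lower in PLX5622 mice at all 6 times, by log2 differences from -0.02 at ZT14 to -0.28 at ZT2 (standard error 0.11, adjusted p = 0.318). *Tef* was lower by -0.18 at ZT2 (standard error 0.076, unadjusted p = 0.0245) and higher by 0.19 at ZT10 (unadjusted p = 0.0183), both with adjusted p-values in limma above 0.4. *Hlf* ranged from -0.09 at ZT2 to 0.25 at ZT10, and *Nfil3* from -0.30 at ZT18 to 0.19 at ZT22, with lowest adjusted p-values of 0.700 and 0.747.

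In TPM the groups of the 2 diets at a given time did not overlap in 5 of these 24 comparisons. Most of the gaps were narrow, and overlap was not examined in the counts scaled by library total. At ZT2, where 5.29% of genes did not overlap, *Dbp* and *Tef* were lower in every PLX5622 mouse than in any control mouse. The PLX5622 *Dbp* values of 38.8 to 45.02 TPM lay just below the control values of 45.8 to 55.8 TPM. For *Tef* the nearest values were 142.4 TPM in PLX5622 and 143.4 TPM in control mice. The others were *Hlf*, higher at ZT10 (3.45% of genes), *Nfil3*, lower at ZT18 (3.06%), and *Tef*, lower at ZT22 (4.84%). Their nearest values in PLX5622 and control mice were 64.2 and 63.7 TPM, 5.04 and 5.13 TPM, and 155.3 and 155.5 TPM. No member was among the 5.49% of genes at ZT6 and the 5.15% at ZT14.

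**Figure D3:**
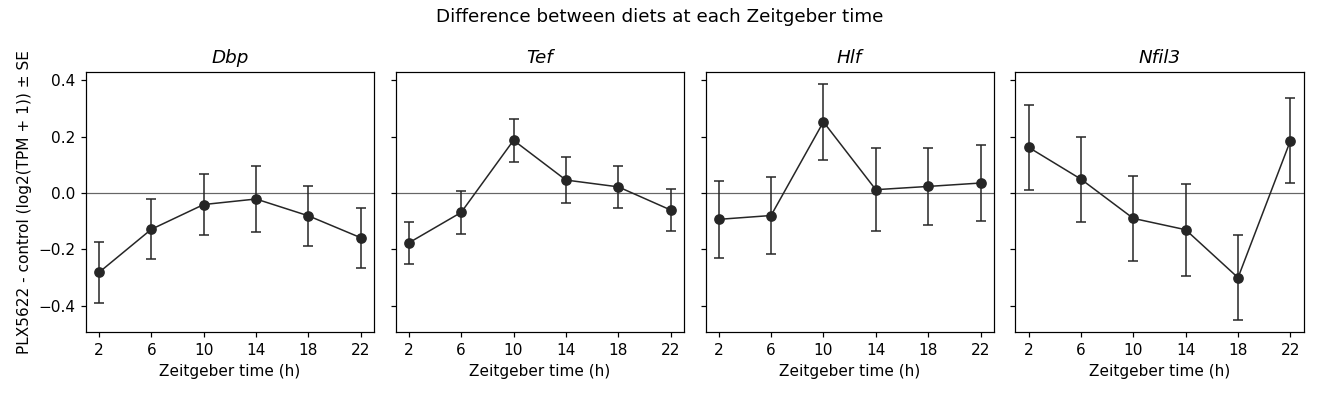
Difference between PLX5622 and control mice in log2(TPM + 1) (y axis) at each Zeitgeber time in hours (x axis), as the limma estimate ± standard error, for the 4 genes. *Dbp* lies below 0 at all 6 times, from -0.28 at ZT2 to -0.02 at ZT14, and *Nfil3* is lowest at ZT18.

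Since DBP and NFIL3 meet at the same element, the ratio of their transcripts was followed over the day. In control mice the ratio of *Dbp* to *Nfil3* TPM was 9.97 ± 1.97 (SD, n = 4) at ZT2 and 32.1 ± 2.21 at ZT10, and it returned to 10.7 ± 2.12 at ZT22. In PLX5622 mice it was 7.09 ± 0.870 at ZT2, 37.6 ± 20.8 at ZT10 and 8.23 ± 1.88 at ZT22. The large spread at ZT10 came with 1 mouse at a ratio of 68.5, in which *Nfil3* was at 2.02 TPM from 52 reads, and without it the mean was 27.3 ± 3.90 (n = 3). ZT10 was then below the ZT14 mean of 28.4 ± 7.29. In both diets the ZT10 and ZT14 libraries lay above the ZT2 and ZT22 libraries without overlap.

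Within the PAR bZIP group the share of *Dbp* in the summed TPM of *Dbp*, *Tef* and *Hlf* moved in the same way. It rose from 19.7 ± 1.34% at ZT2 to 37.6 ± 1.51% at ZT10 in control mice and from 18.3 ± 1.58% to 33.6 ± 1.88% in PLX5622 mice. At the other times it lay between these values except at ZT22, where it was 19.1 ± 2.64% and 17.7 ± 1.93%. *Tef* was the largest part of the sum throughout.

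**Figure D4:**
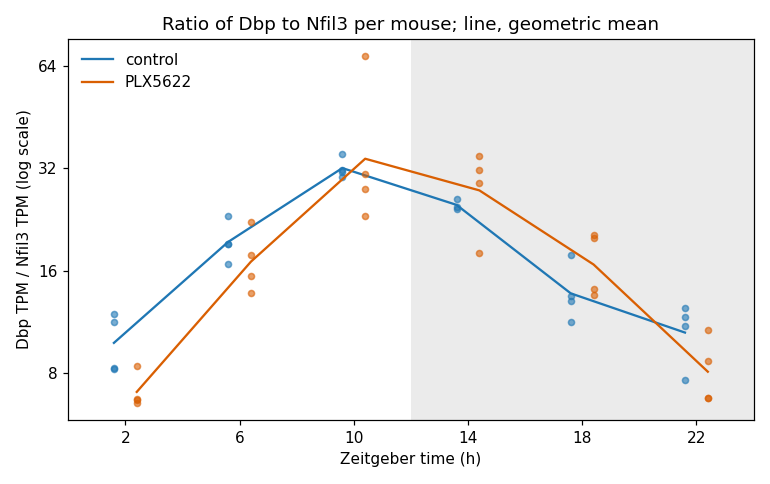
Ratio of *Dbp* to *Nfil3* TPM (y axis, log scale) against Zeitgeber time in hours (x axis), 1 point per mouse, with lines through the geometric means of 3 or 4 mice. The ratio is near 10 or below at ZT2 and at 23.2 or higher in every mouse at ZT10, and 1 PLX5622 mouse at ZT10 stands at 68.5.

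Among 30 genes of the clock and D-box lists that passed the filter, members included, *Dbp* had the second largest fitted amplitude in both diets, after *Ciart*, a repressor of CLOCK and BMAL1. JTK_CYCLE called *Arntl* of the 3 activators in both diets (adjusted p = 0.0146 in control, 0.00241 in PLX5622), with fitted peaks at ZT1.03 and ZT0.678, nearly opposite to *Dbp*. Of the 5 nuclear receptors it called *Nr1d2* in control mice and *Nr1d1* and *Nr1d2*, which encode the REV-ERBs, in PLX5622 mice. Of the 8 repressors it called *Ciart* in control mice and *Ciart*, *Bhlhe41* and *Per3* in PLX5622 mice. None of these 16 genes was called by limma in the main fits for a difference in mean level or in rhythm between diets.

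Of 6 known targets of PAR bZIP factors, *Nr1i3*, *Cyp2a4* and *Cyp2a5* were below the filter, with means under 1 TPM in both diets. The other 3, *Pdxk* (pyridoxal kinase), *Alas1* (the first enzyme of heme synthesis) and *Por* (the electron donor of cytochrome P450 enzymes), had means of 36.7 to 63.3 TPM. JTK_CYCLE called 0 of them in either diet, with 0 at an unadjusted p under 0.05, while edgeR called *Por* in both diets. Their fitted amplitudes were 0.06 to 0.16, and *Por* had 0.15 (standard error 0.058) with a peak at ZT12.8 in control and 0.16 (0.060) with a peak at ZT14.5 in PLX5622 mice. None was called for the diet by limma in the main fits.

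Of 7 other bZIP factors, among them C/EBP and ATF family members, *Cebpa* was lower in PLX5622 mice (log2 difference -0.47, standard error 0.065, limma adjusted p = 2.71e-07), at 7.83 ± 1.53 TPM (SD, n = 23) in control and 5.46 ± 1.45 TPM (n = 24) in PLX5622 mice. The microglial markers fell beside it, and their part was not tested. JTK_CYCLE called *Cebpa* in PLX5622 mice (adjusted p = 0.0248, fitted peak ZT12.6) and not in control mice (adjusted p = 1), and its difference in rhythm was not called by limma.

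**Figure D5:**
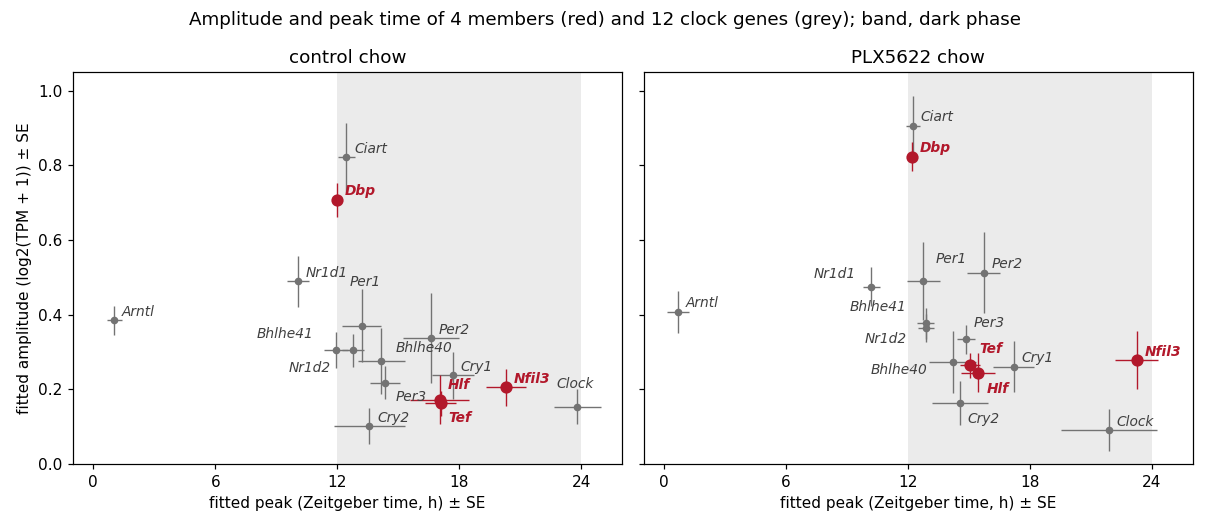
Fitted amplitude in log2(TPM + 1) (y axis) against fitted peak in Zeitgeber time (x axis), both ± standard error, for the 4 members (red) and 12 clock genes (grey) in 23 control and 24 PLX5622 libraries. *Dbp* sits with *Ciart* near ZT12 at the top of both panels, *Tef* and *Hlf* lie close together, and *Arntl* lies near ZT1.

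Across the 47 libraries the genes whose log2(TPM + 1) followed *Dbp* most closely were *Ciart* (Pearson r = 0.90), *Nr1d2* (0.88) and *Rbm3* (0.87), a cold-inducible RNA-binding protein gene, and the most opposite was *Arntl* (-0.84). The closest to *Tef* were *Hrh3* (0.85), the histamine H3 receptor gene, *Mxi1* (0.83) and *Smim3* (0.82). *Hrh3* was fitted with peaks at ZT16.2 (standard error 0.714 h) in control and ZT14.3 (0.422 h) in PLX5622 mice. It was picked for its likeness to *Tef* in these same libraries, so its earlier peak in PLX5622 mice is not a separate observation. The closest to *Hlf* were *Rmnd5a* (0.85), *Lrrc8c* (0.81) and *Crkl* (0.81). The closest to *Nfil3* was *Sphk2* (0.77), the gene that overlaps *Dbp*, then *Sgsm1* (0.77) and *Calr* (0.75). *Sphk2* was fitted with peaks at ZT22.3 and ZT22.1, about 10 h from those of *Dbp*. These correlations are over 47 libraries that share 12 groups and library depth, and describe likeness only.

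Whether members moved together between mice of the same diet and time was asked with deviations from the 12 group means. In log2(TPM + 1) none of the 6 pairs passed a permutation test within groups after adjustment over the pairs, while in log2 CPM of the counts *Dbp* and *Tef* (r = 0.50, adjusted permutation p = 0.00984), *Dbp* and *Nfil3* (r = -0.46, 0.0331) and *Tef* and *Nfil3* (r = -0.47, 0.0295) did. Without the 2 farthest libraries these 3 pairs had r = 0.40, -0.39 and -0.30 and none passed (adjusted permutation p = 0.102, 0.102 and 0.239), and by Spearman's rho *Dbp* and *Tef* passed (0.49, 0.0131) but *Dbp* and *Nfil3* (-0.40, 0.0501) and *Tef* and *Nfil3* (-0.35, 0.0832) did not. The lowest p-values in TPM were those of *Dbp* and *Hlf* (Pearson r = 0.39, p = 0.0199, adjusted p = 0.0825, Spearman rho = 0.38, p = 0.0254, adjusted p = 0.0762, n = 47) and *Hlf* and *Nfil3* (r = 0.32, p = 0.0275, adjusted p = 0.0825, rho = 0.37, p = 0.0221, adjusted p = 0.0762). The first pair had r = 0.57 within control and 0.17 within PLX5622 mice, and 0.41 without the 2 farthest libraries.

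The same deviations were set against 11 measures of each library, the summed levels of 9 cell type and tissue marker lists, the library total and the mitochondrial share of the counts, with p-values adjusted over the 44 relations in a unit. In log2(TPM + 1) 8 relations passed, 4 of *Hlf*, 3 of *Nfil3*, 1 of *Dbp* and 0 of *Tef*. *Hlf* was higher where the mitochondrial share was lower (r = -0.70, permutation p = 1e-05, the smallest that the permutations can give, adjusted p = 2.2e-04, rho = -0.69, p = 2e-05, n = 47), with r = -0.69 within control mice, -0.70 within PLX5622 mice and -0.67 without the 2 farthest libraries. It was also higher with the cortical layer (r = 0.63, rho = 0.61, adjusted permutation p = 0.00198 for both), neuronal (r = 0.59, adjusted permutation p = 0.00226, rho = 0.59, 0.00245) and endothelial markers (r = 0.59, adjusted permutation p = 0.00106, rho = 0.60, 0.00132), at r = 0.57, 0.59 and 0.58 without the 2 farthest libraries.

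*Nfil3* followed much the same measures, namely the neuronal markers (r = 0.62, adjusted permutation p = 9.9e-04, rho = 0.61, 0.00132), the cortical layer markers (r = 0.58, adjusted permutation p = 2.2e-04, rho = 0.62, 4.4e-04) and the mitochondrial share (r = -0.58, adjusted permutation p = 9.9e-04, rho = -0.61, 0.00132), at r = 0.54, 0.63 and -0.54 without the 2 farthest libraries. *Dbp* followed the blood markers (r = 0.41, adjusted permutation p = 0.0305, rho = 0.42, 0.0425), with r = 0.58 within control and 0.27 within PLX5622 mice. No member passed with the microglial markers over the 47 libraries. Within control mice r was 0.55 for *Dbp*, 0.31 for *Tef*, 0.75 for *Hlf* and 0.52 for *Nfil3*. Within PLX5622 mice it was 0.09, 0.31, -0.10 and 0.16, and these relations were not tested within a diet. The members were also taken in log2 CPM, while the marker sums stayed in TPM, so these relations set 2 scales against each other. There 6 relations passed, 3 of *Hlf*, 2 of *Tef* and 1 of *Dbp*. *Hlf* again rose with the cortical layer (r = 0.54, adjusted permutation p = 0.02655) and endothelial markers (r = 0.50, 0.0314), and *Dbp* with the blood markers (r = 0.44, 0.0314). *Hlf* also fell with the oligodendrocyte markers (r = -0.39, 0.0314), which had not passed in TPM. By Spearman's rho none of these relations of *Hlf* and *Dbp* passed (adjusted permutation p 0.0676 to 0.1585). The mitochondrial share then had r = 0.57 with *Tef* (adjusted permutation p = 0.00418), while its relations with *Dbp* (0.40, 0.0723), *Hlf* (-0.29, 0.248) and *Nfil3* (-0.30, 0.162) did not pass, and no relation of *Nfil3* did. *Tef* in log2 CPM had r = -0.65 with the neuronal markers in TPM (adjusted permutation p = 0.00176). The direction thus differed by gene and by the unit of the member, and marker sums in CPM were not examined. The part of these measures in the spread of the members was not tested.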

How the data were processed

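The authors deposited 2 tables with 1 column per library: TPM values, made by mapping to GRCm38.p6 with STAR and quantifying with Salmon on a Gencode annotation, and whole-number counts per gene. The count table is named for FPKM, but its values are whole and sum to 16597987 to 27626161 per library. The submitters' processing notes name mm10, STAR, featureCounts, edgeR and limma without a role. Library totals limit counting error only. All 47 TPM columns matched best the count column of the same name, and no 2 libraries of a group agreed within counting error (smallest chi-square per degree of freedom 4.56 over 69 pairs).

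Symbols came from GENCODE M21 (99.7% of the TPM table's identifiers and 99.8% of the count table's). Groups came from the sample titles. Replicates were separate mice. Libraries were sequenced on NovaSeq and HiSeq instruments, and which library ran on which is not given in the sources used here. The main scale was log2(TPM + 1), over the 14580 genes averaging 1 TPM or more. limma 3.58.1 tested the diet with cosine and sine terms, the interaction of diet and time, and the diet at each time. JTK_CYCLE, written here because MetaCycle was not installed, tested cycling exactly with 6 phases and a Bonferroni factor. p-values were adjusted with the Benjamini-Hochberg procedure over all genes tested, at 0.05. Amplitude and peak came from least squares in each diet, and intervals of differences from a jackknife over mice. Correlations used 100000 permutations within groups; those with marker lists were added after seeing the data. Alternatives were edgeR 4.0.16 and DESeq2 1.42.0 on counts, other filters, pseudocounts and scalings, residual principal components, a replicate block, and each library left out. RefSeq promoters were searched by their letters. The tests were checked on simulated data. The named genes were the members, the listed clock and D-box genes, and for each member the 3 genes most correlated with it, plus the most opposite where given, which was added afterwards. The members and all lists were chosen with earlier results of these data known. Protein sequences were not used here. R 4.3.3 and Python 3.11.15 were used.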

Additional observations from a re-analysis of the deposited data

Results flagged for a closer look

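Each member's TPM values were examined in the 11 groups of 4 libraries for a value far from the other 3, by Dixon's test at the 95% level, in 44 groups of values in all. Chance flags about 1 in 20 groups, or 2.20 of 44, and 3 values were flagged. *Hlf* in the third control mouse at ZT10 was at 49.9 TPM, against 61.8 to 63.7 TPM in the others. Its 5571 reads were the most of that group, as was its library total of 23768758 counts. Values scaled by library total were not examined in this way. *Hlf* in the second control mouse at ZT18 was at 92.8 TPM (6155 reads), against 66.3 to 69.5 TPM. *Nfil3* in the first PLX5622 mouse at ZT2 was at 4.63 TPM (129 reads), against 6.41 to 6.74 TPM.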

How the results depend on the processing

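Depth limits *Nfil3* most, with 52 to 236 reads per library. Fitted amplitudes and peaks of the 4 genes moved by less than their standard errors with a pseudocount of 0.1, median-of-ratios scaling and log2 CPM. A second harmonic was also added. At 6 evenly spaced times it can hardly move the 24-h terms, so it is no check on them. With the pseudocount the fitted mean of *Nfil3* became 2.28 in control and 2.25 in PLX5622 mice (2.52 and 2.51 with a pseudocount of 1), and means in log2 CPM are on another scale. The diet's effect on the mean level was called for 298 genes averaging 5 TPM or more, 2428 with 3 residual principal components, 1058 by edgeR and 1126 by DESeq2, and for 1 member, *Dbp*, by both of the latter tools. The effect on rhythm was called for 237 genes with 3 residual principal components and for 0 members. These components were taken from the residuals of the model of diet and time in the same data. They leave the estimates unchanged and only take variation out of the residuals, so the higher counts with them are no check on the main result. Cycling in control mice was called for 36 genes by limma's F test, 314 by edgeR, 699 by DESeq2, 6 without a filter and 41 after median-of-ratios scaling, and for 3 members by edgeR and 4 by DESeq2. In PLX5622 mice it was called for 135 genes by limma's F test, 444 by edgeR, 863 by DESeq2 and 159 after median-of-ratios scaling, and for 4 members by edgeR, DESeq2 and median-of-ratios scaling. Among genes averaging 5 TPM or more, where *Nfil3* drops out, the diet was called for 78 genes at ZT2, 50 at ZT6, 59 at ZT10, 40 at ZT14, 43 at ZT18 and 77 at ZT22. In log2 CPM 3 correlations between members passed (0.50, -0.46 and -0.47), but 0 of them without the 2 farthest libraries. The causes of the other changes were not tested.

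The main fits and the permutations within groups did not use the replicate numbers, although libraries of one number were on average more alike. Their deviations from the group means had a mean correlation of 0.051, against -0.017 for other pairs. Of the 47 libraries, 24 were closest to their own number. Of 23 control and PLX5622 pairs of one time and number, 7 had a correlation above 0.1. With the replicate number as a block, limma's F test called 68 genes in control and 153 in PLX5622 mice, the diet's mean level was called for 578 genes and 0 members, and the ZT14 difference of *Hlf* became -0.00088.

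Small differences that did not pass changed sign. For the mean level these were *Tef* (0.13 TPM without log, 0.0027 with the library total as a term), *Hlf* (-0.044 by edgeR, -0.052 by DESeq2) and *Nfil3* (0.021 TPM without log), and by edgeR *Hlf* at ZT14 (-0.060) and ZT18 (-0.079) and *Tef* at ZT18 (-0.012).

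With each library left out, the mean-level difference ranged from -0.020 to 0.0062 for *Tef* and from -0.036 to 0.018 for *Nfil3*, and stayed between -0.13 and -0.10 for *Dbp* (limma adjusted p 0.0778 to 0.210). At single times the difference of *Dbp* ranged from -0.11 to 0.00052 at ZT10, from -0.090 to 0.039 at ZT14 and from -0.14 to 0.0075 at ZT18. That of *Hlf* ranged from -0.13 to 0.14 at ZT14, from -0.049 to 0.13 at ZT18 and from -0.063 to 0.11 at ZT22. That of *Nfil3* ranged from -0.041 to 0.11 at ZT6 and from -0.22 to 0.10 at ZT10, where it was positive without the second PLX5622 mouse, and that of *Tef* from -0.029 to 0.088 at ZT18. None of these passed. Cycling in control mice was called for 6 to 18 genes, always with 1 member. The count fell to 6 or 7 without control replicate 1, 2 or 3 at ZT6, replicate 1 or 4 at ZT10, replicate 1 at ZT2 or replicate 2 at ZT14. In PLX5622 mice 50 to 107 genes and 2 to 3 members were called, with *Hlf* added without replicate 3 at ZT2 (JTK_CYCLE adjusted p = 0.0300), or without replicate 2 (0.0193) or 3 (0.0459) at ZT18.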
